A study of Homo sapiens with 2 samples.

Results

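The miRNAs described here carry the numbers 6000 and above and were detected in HepG2 cells, an established human hepatocellular carcinoma line. They were chosen by their measured detection. A miRNA was kept when its name was hsa-miR-N with N of at least 6000, except miR-7641, and the scanner software called it detected on at least 1 of the arrays. This gave 54 of the 536 miRNAs with such numbers on the array, out of 2549 human miRNAs in all. The cells received the adenoviral vector Ad-uc.372 or the control vector Ad-NC for 48 h, so both groups carried an adenovirus. That Ad-uc.372 overexpresses uc.372 rests on the title given to the data, and the sample labels name the vectors alone. Each condition had 1 Agilent human miRNA array with Cy3-labelled RNA, and both arrays shared a slide and a scan. With no second array per vector there was no test across samples. Errors are SDs over the spots of a probe and are technical.

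miRNAs are short RNAs that guide Argonaute proteins to messenger RNAs, mainly by pairing through the bases after the first one, called the seed. Most are cut from a hairpin by Drosha and then by Dicer, and the product from either side of the hairpin is named 5p or 3p. Mirtrons are short introns that fold into a hairpin once they are spliced, skip Drosha and go to Dicer. miRNA names are numbered in the order in which they were reported, so the high numbers hold miRNAs found late, mostly by deep sequencing, and many of these are predicted mirtrons.

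Sequences came from RefSeq on GRCh38.p14, and 48 of the 54 miRNAs had one. The brightest of these on the arrays come first, with the seed, bases 2 to 8, in capitals. miR-7975 lies at chr19:55123225-55123242 on the minus strand and miR-7977 at chr3:176515103-176515120 on the plus strand, both outside protein-coding genes. miR-6090 lies at chr11:128522430-128522448 on the plus strand, within the bounds of ETS1. Genes were matched by position alone and strand was not compared, so a gene named here can lie on the opposite strand. miR-8069 and miR-6089 each have 2 loci in RefSeq.

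miR-7975: aUCCUAGUcacggcacca

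miR-7977: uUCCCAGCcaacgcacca

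miR-8069: gGAUGGUUgggggcggucggcgu

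miR-6089: gGAGGCCGggguggggcggggcgg

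miR-6090: gGGGAGCGaggggcggggc

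The next 6 lie at the ends of the range of differences between the arrays, all short of 1.5-fold. The first 3 are the highest with Ad-uc.372, and the last 3 are the lowest after miR-6090, which is printed above. miR-6826-5p lies inside COPG1 at chr3:129272151-129272173 on the plus strand, and miR-6803-5p inside PPP6R1 at chr19:55245224-55245245 on the minus strand.

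miR-6826-5p: uCAAUAGGaaagaggugggaccu

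miR-6780b-5p: uGGGGAAGgcuuggcagggaaga

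miR-6749-5p: uCGGGCCUgggguugggggagc

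miR-6803-5p: cUGGGGGUggggggcugggcgu

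miR-6515-3p: uCUCUUCAucuaccccccag

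miR-7107-5p: uCGGCCUGgggaggaggaaggg

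The hairpins below show how the arms lie, with the detected arm or arms in capitals. MIR6763, inside FBRSL1 at chr12:132581997-132582061 on the plus strand, had both arms detected. MIR6826, at chr3:129272146-129272243 on the plus strand, and MIR6515, inside CALR at chr19:12940484-12940540 on the plus strand, had 1 arm detected. All 3 end in AG, the letters that close a spliced intron.

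MIR6763: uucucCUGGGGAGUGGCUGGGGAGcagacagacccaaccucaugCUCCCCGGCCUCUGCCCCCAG

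MIR6826: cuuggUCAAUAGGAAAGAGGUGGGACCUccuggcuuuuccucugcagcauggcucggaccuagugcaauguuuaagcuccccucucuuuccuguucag

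MIR6515: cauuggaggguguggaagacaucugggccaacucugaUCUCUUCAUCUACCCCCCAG

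In the genes at their loci and in their hairpin ends the high-numbered miRNAs differed from those numbered under 1000, the miRNAs reported early. Of the 48 with a locus, 39 (81.3%) lay within a protein-coding gene on either strand. Of all array miRNAs numbered under 1000 it was 421 of 784 (53.7%). The hairpin sequence ended in AG for 22 of 43 hairpins (51.2%) with a sequence, against 14 of 433 (3.23%) under 1000. This ending went with the naming. Among the hairpins of miRNAs with 5p or 3p in their name, 21 of 28 (75%) ended in AG, and among those with no arm in the name 1 of 15 (6.67%) did. Only miR-6085 and miR-6891-5p have a hairpin sequence that also starts with GU, the letters that open most introns. A GU start was thus rare in these sequences. The name mirtron could be set only against the hairpin end and a gene at the locus on either strand. Both properties were common in the undetected miRNAs of the same numbers too, where 89.2% lay inside a protein-coding gene and 59.3% of the hairpins ended in AG.

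Of 4 miRNAs taken as markers of liver cells, 3 were detected in the HepG2 cells. miR-192-5p, miR-194-5p and miR-148a-3p, which liver cells express, were detected on both arrays, and miR-122-5p, the main miRNA of hepatocytes, was on neither. Of 3 epithelial markers 2 were detected on both arrays. None of the markers of leukocytes, muscle, neurons, or endothelium and stroma was detected on either array. The limit above which the software called a spot well above background lay at 21.1 with Ad-NC and at 17.3 with Ad-uc.372, read from its dimmest such spot. All signals are scanner units after background subtraction.

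Most of the signal came from 2 of the 54 miRNAs. The signals of miR-7975 were 150692 ± 8393 with Ad-NC and 151208 ± 3957 with Ad-uc.372. For miR-7977 the signals were 97507 ± 4915 and 99529 ± 12813. These were the highest and the second highest of the 296 miRNAs detected with Ad-NC by total signal over their probes, and also of the 319 detected with Ad-uc.372. Together they gave 95.3% of the total signal of the high-numbered miRNAs with Ad-NC and 95.5% with Ad-uc.372. With them the high-numbered miRNAs took 75.4% and 75% of the total signal of all detected miRNAs, and without them 3.55% and 3.36%. Signal depends on the probe as well as on the RNA, so this order is of brightness and not of abundance.

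Both sequences are 18 bases long and end in CACCA. CCA is the end that is added to mature transfer RNAs, which is background here and not a statement on the source of these signals. Of the 2248 miRNAs on the array with a sequence, 5 end in CACCA (miR-1260a, miR-4252, miR-7975, miR-7977 and miR-876-5p), and 3 of these 5 were detected. With G in 16.7% and 11.1% of their bases they were the exceptions among the 8 brightest, of which the others with a sequence were rich in G. The source of their signal was not tested.

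After these came 4 miRNAs with signals over 1000. miR-8069 had 3905 ± 84.6 with Ad-NC and 3783 ± 206 with Ad-uc.372. miR-6089 had 3085 ± 118 and 3086 ± 121. Both carry long runs of G, as does miR-6090 with 2171 ± 119.8 and 1921 ± 105. miR-6087 gave 1154 ± 45.8 and 1039 ± 35.5. miR-6869-5p, with 456 ± 17.4 and 490.5 ± 5.90, and miR-6088, with 239 ± 8.17 and 260.4 ± 10.6, complete the 8 brightest. The order of these 8 was the same on both arrays, but with Ad-uc.372 miR-6826-5p lay above miR-6088.

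**Figure D1:**
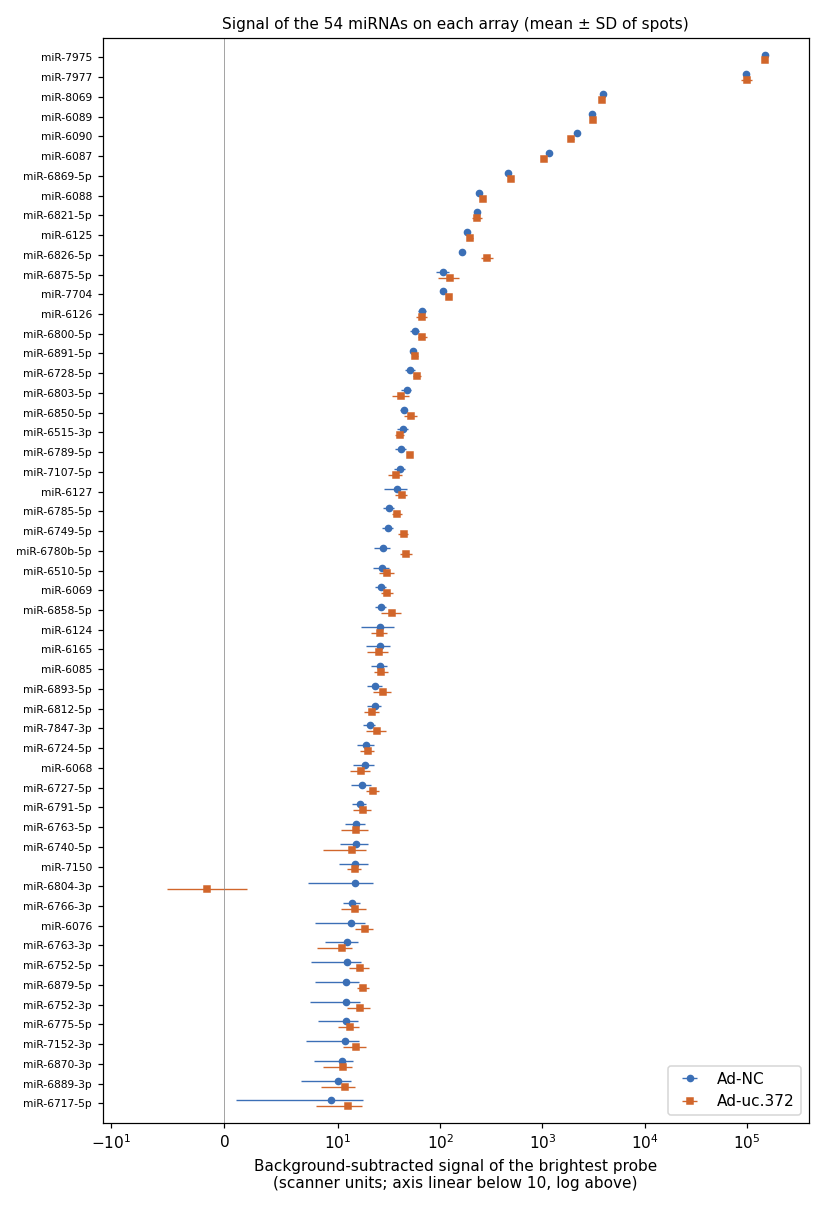
Signal of the brightest probe of each of the 54 miRNAs with Ad-NC (circles) and Ad-uc.372 (squares), as the mean ± SD of up to 10 spots, on an axis that is linear below 10 and logarithmic above. miR-7975 and miR-7977 stand apart at the right, and 41 of the 54 lie under 100 with Ad-NC.

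The rest were dim. The median signal of the brightest probe was 26.6 with Ad-NC (interquartile range 15.1 to 64.3) and 32.1 with Ad-uc.372, and 41 of the 54 (75.9%) were under 100 with Ad-NC. Among the 178 detected miRNAs numbered under 1000 the median was 47.1 with Ad-NC, the highest was 10923, and 110 (61.8%) were under 100. Both sets thus lay mostly in the dim range, and the high numbers held the 2 brightest.

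At the edge of detection the choice of members rested on small differences. The members of lowest total signal were miR-6717-5p, miR-6763-3p and miR-6870-3p. miR-6717-5p had a probe signal of 9.38 ± 8.38 with Ad-NC and 12.6 ± 4.56 with Ad-uc.372. Of the undetected miRNAs of the same numbers, miR-6848-3p had 12.1 ± 3.27 and 10.2 ± 1.79. miR-6795-3p had 12.4 ± 4.65 and 9.74 ± 4.26, and miR-6800-3p had 11.7 ± 2.86 and 9.70 ± 2.86. The levels inside and outside the set overlap here.

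The software detected 45 of the 54 with Ad-NC, 53 with Ad-uc.372 and 44 on both arrays. Over the whole array the counts were 296, 319 and 279, and among the 178 under 1000 they were 161, 171 and 154. The count of the 54 belongs to the choice of members and is given as a description. Of the 54, miR-6804-3p was the one detected with Ad-NC alone, at 14.7 ± 7.32 against -1.50 ± 3.53. The other 9 detected on 1 array had Ad-uc.372 as that array, and 5 of them were 3p arms. By the stricter flag of the single spots, 34 of the 54 were well above background on both arrays in at least 1 probe, 6 with Ad-uc.372 alone, none with Ad-NC alone and 14 on neither. Over the whole array it was 31 with Ad-uc.372 alone and 7 with Ad-NC alone, and among the 178 under 1000 it was 19 and 3. The 6 were miR-6076, miR-6724-5p, miR-6727-5p, miR-6791-5p, miR-6879-5p and miR-7847-3p. For none of them did the signal lie far enough above the limit of the Ad-NC array to give a fold. The limit was higher with Ad-NC, 21.1 against 17.3, and its part in these counts was not tested.

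Detection was spread unevenly over the numbers. From 6000 to below 6500, where names carry no arm among the members, 13 of 37 miRNAs on the array (35.1%) were detected. From 6500 to below 7000 it was 33 of 389 (8.48%), all with an arm in the name. From 7000 to below 8000 it was 7 of 70, and from 8000 on 1 of 40, miR-8069. The large block from 6500 thus gave most of the members but at a low rate, and the short block before it the highest rate.

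The 5p arm was the one detected in most of these hairpins. The array held both arms of 211 hairpins numbered 6000 and above, and 31 of them (14.7%) had a detected arm. Only the 5p arm was detected in 23, only the 3p arm in 6 and both arms in 2. For numbers under 1000, 113 of 314 hairpins (36.0%) had a detected arm, with 42 in the 5p arm only, 45 in the 3p arm only and 26 in both. A single arm was thus seen in 93.5% of the detected high-numbered hairpins and in 77.0% of those under 1000, and that arm was 5p in 79.3% and 48.3%. For numbers 2000 to below 6000 the counts were 8, 11 and 4. These shares follow from detection, which chose the members, and are a description of these 2 arrays.

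**Figure D2:**
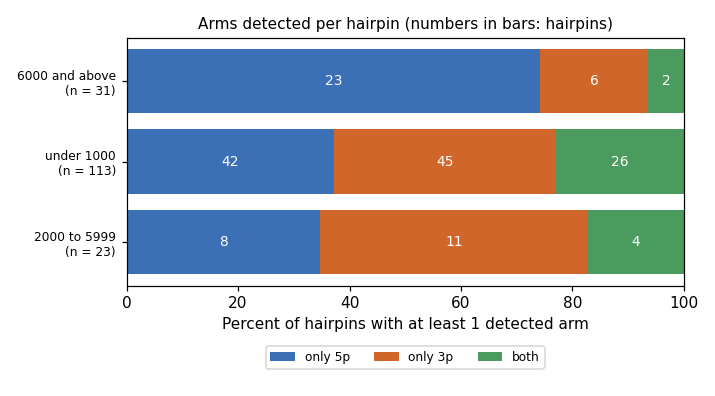
Percent of hairpins with only the 5p arm, only the 3p arm or both arms detected on at least 1 array, among hairpins with both arms on the array, for 3 ranges of miRNA numbers. In the high numbers 23 of 31 hairpins had only the 5p arm, against 42 of 113 under 1000.

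The undetected arms mostly lay at background. The other arm was on the array for 33 of the members, and for 29 of these it was undetected. The median signal over these 33 other arms was -0.11 with Ad-NC and -0.22 with Ad-uc.372. For miR-6826-5p, whose signal was 162 ± 7.22 with Ad-NC, the 3p arm had 0.70 ± 2.23. For miR-6869-5p the 3p arm had -3.24 ± 2.48 with Ad-NC. miR-6515-3p ran the other way, with 42.9 ± 5.04 in the 3p arm and 0.052 ± 3.97 in the 5p arm. It was the only one of 9 detected 3p arms that was well above background on both arrays, whereas 18 of 27 5p arms were.

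Where both arms were detected, they were dim and close in signal. miR-6752-5p had 12.2 ± 4.62 with Ad-NC and 16.5 ± 3.67 with Ad-uc.372, and miR-6752-3p had 12 ± 4.45 and 16.4 ± 4.07. miR-6763-5p had 15.2 ± 3.32 and 15.1 ± 4.45, and miR-6763-3p had 12.3 ± 3.40 and 11 ± 2.86. None of the 4 was well above background on either array, so the arms of neither hairpin could be set against each other.

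G content went with detection in the high numbers. The median share of G in the mature sequence was 55.1% in the 48 members, 29.2% in the 426 undetected miRNAs of the same numbers and 26.1% in the detected miRNAs under 1000. Of the high-numbered miRNAs with more than 50% G, 29 of 76 (38.2%) were detected. Of those with 25 to 50% G it was 10 of 210 (4.76%), and with up to 25% G it was 9 of 188 (4.79%). Under 1000 the shares were 5 of 12 (41.7%), 76 of 337 (22.6%) and 76 of 435 (17.5%). Few miRNAs under 1000 were as rich in G, so that their top range rests on 12.

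G content differed between arms and, within the 5p arms and the miRNAs with no arm in the name, with detection. The 22 detected 5p arms had a median of 57.4% G and the 172 undetected 5p arms of the same numbers 44.7%. Among miRNAs with no arm in the name the medians were 57.9% (n = 17) and 35.0% (n = 66). The 3p arms showed no such gap, with 13.6% (n = 9) against 16.2% (n = 188), and were rich in C instead, with a median of 45.5% C. A run of GGG was in 32 of the 48 members (66.7%), in 39.2% of the undetected high-numbered miRNAs and in 30.6% of the detected ones under 1000. In the detected miRNAs numbered 2000 to below 6000 it was 39 of 59 (66.1%), with a median of 45.8% G, so a high share of GGG was not particular to the high numbers. Among the detected 5p arms 21 of 22 held one, against 127 of 172 undetected ones. The part of the probes in these shares was not tested.

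**Figure D3:**
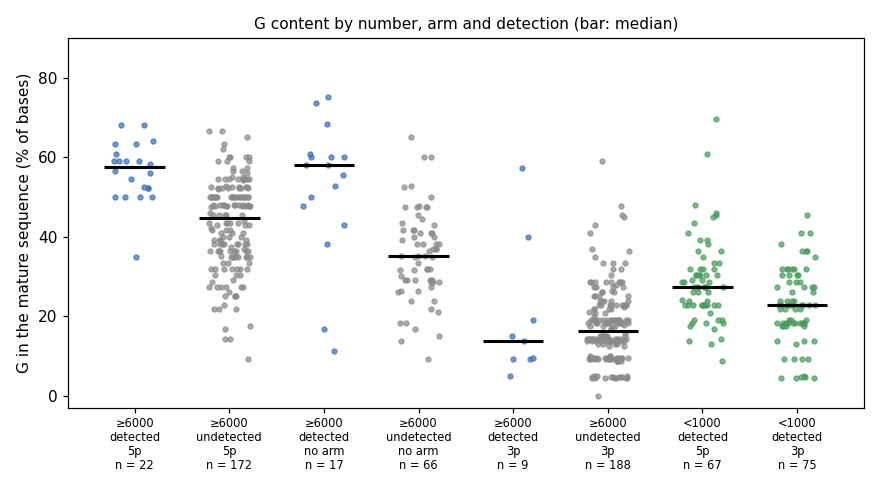
Share of G in the mature sequence of each miRNA, by number range, arm and detection, with a bar at the median. Detected 5p arms and miRNAs with no arm in the name have higher medians (57.4% and 57.9%) than the undetected ones (44.7% and 35.0%). The medians of the 3p arms are low in both (13.6% and 16.2%), with single 3p arms up to 57.1% and 59.1%.

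The seeds of the members were all different. Each of the 48 sequences had a seed of its own, and 19 of the seeds (39.6%) held GGG, against 14 of 157 (8.92%) in the detected miRNAs under 1000. Of the members, 3 shared a seed with a detected miRNA of a lower number. The pairs are printed to show that they part after the seed.

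miR-6766-3p: uGAUUGUCuucccccacccuca

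miR-219a-5p: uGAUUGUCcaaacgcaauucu

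miR-6785-5p: uGGGAGGGcguggaugauggug

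miR-4728-5p: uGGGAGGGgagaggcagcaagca

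miR-6858-5p: gUGAGGAGgggcuggcagggac

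miR-4689: uUGAGGAGacauggugggggcc

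Of each pair only 1 miRNA was well above background on both arrays. miR-219a-5p had 30.8 ± 2.69 with Ad-NC and 31.5 ± 4.6 with Ad-uc.372, and miR-6766-3p had 13.8 ± 2.69 and 14.7 ± 4.09. miR-6785-5p had 31.5 ± 4.21 and 38.0 ± 3.94, and miR-6858-5p had 26.1 ± 3.24 and 33.7 ± 7.63. No pair allowed a comparison of differences.

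The arrays were then compared. For this, signals were set to log2, spots below the limit of their array were set to it, and each array was scaled by the 75th percentile of those probes that passed the limit on both. That step took 0.23 off the Ad-uc.372 array on the log2 scale, so a miRNA with equal signals on both arrays gets a difference below 0 by that amount. Differences are Ad-uc.372 minus Ad-NC, averaged over the probes of a miRNA. Among all 229 miRNAs measured on both arrays 3.93% differed by at least 1.5-fold, 1.31% higher and 2.62% lower.

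None of the 34 high-numbered miRNAs measured on both arrays passed 1.5-fold. Their differences ran from -0.43 to 0.58 with a median of -0.096 (interquartile range -0.25 to -0.018). Of the 34, 27 were below 0 and 7 above, and of all 229 it was 169 and 60. The median of all 229 was -0.17, so most values below 0 lie near the middle of the array. In 19 of the 34 the difference was within its own combined spot SD, which adds the spot variances of the 2 arrays. Over all miRNAs it was 124 of the 229. With no scaling 24 of the 34 were above 0 and 10 below, so many of the signs changed with the scaling. When all probes on the array gave the 75th percentile, all 34 were above 0, with a median of 0.42, and the signs given below are those of the scaling used here. Among the named members, miR-6826-5p and miR-6780b-5p were above 0 in every alternative run.

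miR-6826-5p stood nearest to the threshold. Its signal was 162 ± 7.22 with Ad-NC and 289.8 ± 36.7 with Ad-uc.372, and the spots ran from 150.1 to 170.0 and from 227.4 to 349.6. The spots did not overlap, and the second probe moved alike, from 145 to 251. The difference was 0.58 ± 0.22 on the log2 scale, or 1.499-fold, just short of 1.5-fold. It was the highest of the 34, with 0.57 and 0.60 from its 2 probes. It passed 1.5-fold under 12 of 15 alternatives to these steps, with log2 differences from 0.39 to 1.10 over all 15.

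Other differences towards higher signal were smaller. miR-6780b-5p had 27.5 ± 4.74 with Ad-NC and 46.5 ± 6.01 with Ad-uc.372, a log2 difference of 0.33 ± 0.33, with 0.16 and 0.50 from its 2 probes. miR-6749-5p had 30.9 ± 3.79 and 43.8 ± 4.75, a difference of 0.28 ± 0.29. The spot SD of both was as large as the difference. miR-6875-5p (0.20 ± 0.44), miR-6858-5p (0.11 ± 0.40), miR-6789-5p (0.071 ± 0.26) and miR-6728-5p (0.053 ± 0.20) were the others above 0, all within their spot SD. The eighth, miR-6785-5p, lay at -0.0013 ± 0.27. All 7 above 0 and the eighth are 5p arms numbered from 6500 to below 7000.

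Among the 8 lowest differences, miR-6087 and miR-6090 had the smallest errors. miR-6090, with the signals given above, had the lowest log2 difference, at -0.43 ± 0.098. miR-6087 lay at -0.35 ± 0.070, with -0.38 and -0.33 from its 2 probes. For both the signals were also lower with Ad-uc.372 before scaling, and when all probes gave the 75th percentile the differences were 0.089 for miR-6090 and 0.17 for miR-6087. The dimmer miR-6803-5p had 46.9 ± 5.38 and 41.6 ± 7.96, a difference of -0.42 ± 0.34. miR-6515-3p had 42.9 ± 5.04 and 40.1 ± 3.96, a difference of -0.37 ± 0.22. For both the scaled spots of the arrays overlapped. miR-7107-5p (-0.36 ± 0.31), miR-6165 (-0.34 ± 0.39), miR-6812-5p (-0.29 ± 0.28) and miR-6821-5p (-0.25 ± 0.17) complete the 8 lowest.

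**Figure D4:**
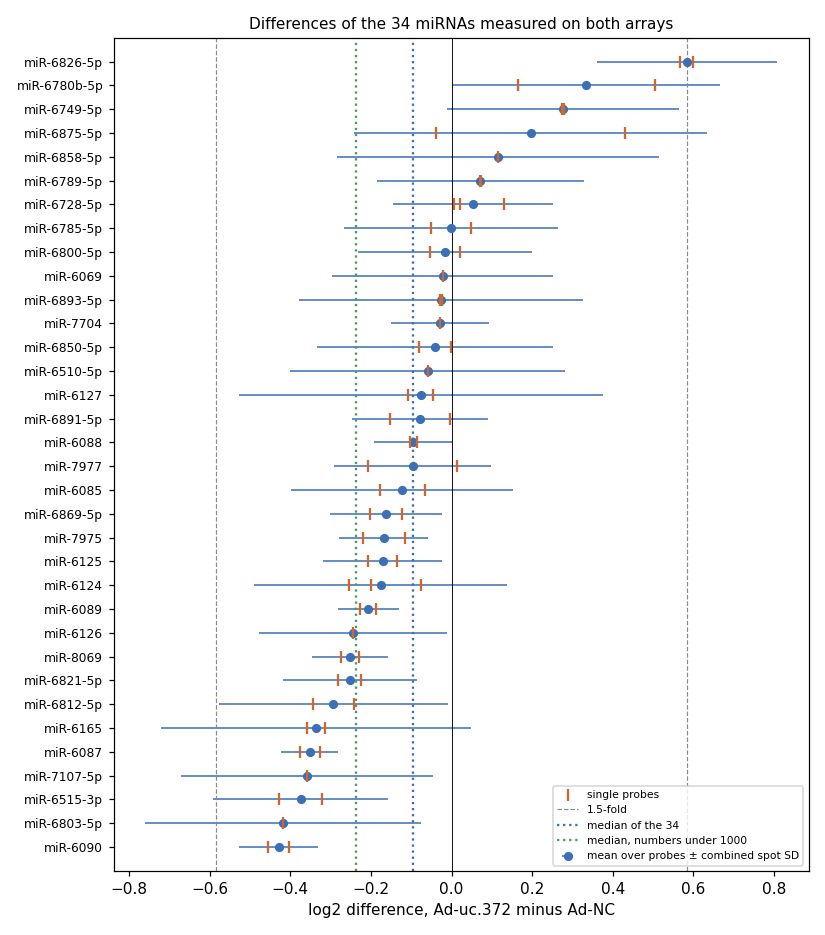
Log2 difference, Ad-uc.372 minus Ad-NC, of the 34 miRNAs measured on both arrays, with the combined spot SD as bars and single probes as ticks. All lie inside the dashed lines at 1.5-fold, and the median of the 34 (-0.096) lies to the right of that of the miRNAs under 1000 (-0.24).

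Spots that did not overlap between the arrays after scaling were counted as a further measure. After scaling, every measured probe had all its spots lower with Ad-uc.372 in 10.9% of the 229 miRNAs and higher in 0.873%. Of the 34 it was 4 lower (miR-6087, miR-6089, miR-6090 and miR-8069) and 1 higher (miR-6826-5p). Before scaling, the spots of the brightest probe overlapped between the arrays in each of the 4 lower ones. In miR-6090 they ran from 1997 to 2388 with Ad-NC and from 1765 to 2087 with Ad-uc.372. The separation of the 4 thus depended on the scaling, whereas the spots of miR-6826-5p were apart before it. The share of 4 in 34 is near the background of all miRNAs. The 4 are all among the 6 brightest, with combined spot SDs from 0.070 to 0.098.

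The extremes of signal were not the extremes of difference. miR-7975 had a log2 difference of -0.17 ± 0.11 and miR-7977 of -0.096 ± 0.20, both near the middle of the 34. miR-8069 lay at -0.25 ± 0.094 and miR-6089 at -0.21 ± 0.076, although the raw signals of miR-6089 were equal on the arrays. The 13 members with a signal of at least 100 had a median of -0.17 and the 21 below had -0.060. Under 1000 the medians were -0.25 (n = 68) and -0.20 (n = 57).

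The miRNAs under 1000 lay lower. Their 125 measured members had a median of -0.24, from -1.24 to 0.76, and 2 passed 1.5-fold higher and 3 lower. The median of the high-numbered miRNAs was thus 0.14 above theirs, and 0.0087 above that of the 46 measured miRNAs numbered 2000 to below 6000. With 1 array per condition this gap has no replicate check. Within the high numbers, the 11 measured from 6000 to below 6500 were all below 0 in this scaling with a median of -0.18, and the 18 from 6500 to below 7000 had a median of -0.021, with 11 below and 7 above.

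**Figure D5:**
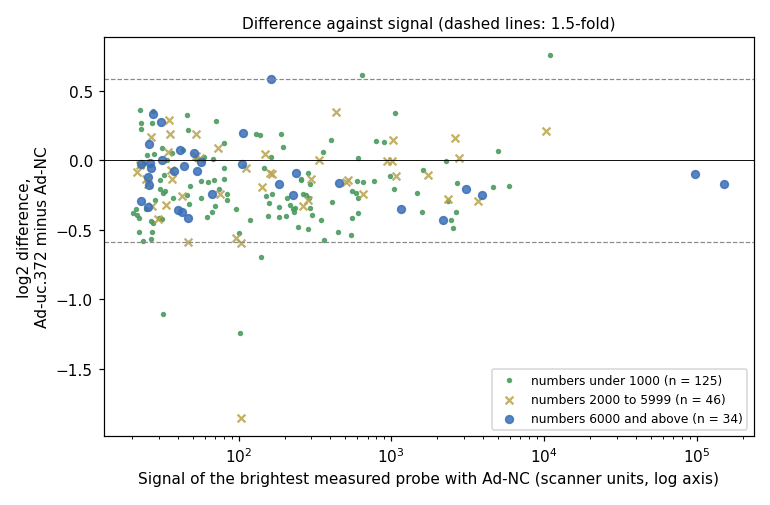
Log2 difference against the signal with Ad-NC (log axis) for miRNAs numbered 6000 and above, 2000 to below 6000 and under 1000, with dashed lines at 1.5-fold. miR-7975 and miR-7977 lie alone at the right near 0, and the values past 1.5-fold belong to other miRNAs.

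The probes of a miRNA were compared with each other. Of the 34, 27 had several measured probes, which differ in sequence but target the same miRNA. In 4 of the 27 (14.8%) the probes had opposite signs, against 12 of 78 (15.4%) under 1000 and 9 of 32 (28.1%) in 2000 to below 6000. The 4 were miR-6785-5p, miR-6800-5p, miR-6875-5p and miR-7977, and all but miR-6875-5p had both probes within 0.21 of 0. The median gap between probes was 0.073 on the log2 scale, against 0.14 under 1000 and 0.079 in 2000 to below 6000, and the largest was 0.47, in miR-6875-5p, against 1.01 under 1000.

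In these 27 the brightest probe with Ad-NC had a median of 1.16 times the signal of the second, and only miR-8069 (2.24) and miR-6125 (2.01) were past 2. In some of the 7 miRNAs measured by a single probe the second probe lay far below. miR-7704 had 106 ± 7.21 in one probe and 0.59 in the other with Ad-NC. miR-6126 had 66.9 ± 6.46 and 5.0, and miR-6803-5p had 46.9 ± 5.38 and 6.99. For all 7 the difference rests on 1 probe, although in some the probe signals were close, as in miR-6069 with 26.4 and 20.0 and miR-6510-5p with 26.7 and 19.3 with Ad-NC.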

How the data were processed

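RNA of HepG2 cells was hybridised to 1 array per vector. The authors read the arrays with Agilent Feature Extraction (10.10 in the submitters' processing notes; the file headers name a later version), and the deposited intensities are background-subtracted and not normalized between arrays. A deposited table of log2 values, made by the authors from the same arrays, served as an alternative only. The array grid is annotated to hg19.

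Here control spots and outlier spots (2.13% and 3.61% of the members' spots with Ad-NC and Ad-uc.372) were left out. A probe passed the limit if 50% or more of its spots were flagged as well above background. The 75th percentile corresponded to signals of 304.6 and 356.5. No spot was saturated. The members and gene lists were chosen with earlier results of these data known. Named miRNAs were the 8 brightest, the 8 largest differences each way, hairpins with both arms and the edges of detection; pairs with a shared seed, CACCA endings, miRNAs whose probes disagreed and miRNAs detected on 1 array were named after their values were seen. The locus of 1 hairpin is not reported here. Steps were tested on simulated data. Values were computed in Python 3.11.15 (pandas 2.3.3, numpy 2.4.6, scipy 1.17.1, figures in matplotlib 3.10.9), and normexp in limma 3.58.1 under R 4.3.3. The number of arrays limits the precision.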

Additional observations from a re-analysis of the deposited data

How the results depend on the processing

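The steps were varied one at a time. The number of members past 1.5-fold, 0 of the 34 in the report, was 1 with no scaling, with scaling to the median and with quantile normalization. It was also 1 with any flagged spot required (44 members with values) and with every spot flagged (27 members with values). The same held with outlier spots kept, with the brightest probe alone and with the median of spots. It held too with 1 detection limit for both arrays, which was chosen after seeing the data. That one was miR-6826-5p, whose difference ran from 0.39 to 1.10 over all settings. No member passed with normexp background correction, where miR-6826-5p had 0.39, or without a filter on dim probes, where it had 0.58. The number was 6 when all probes gave the 75th percentile, 7 and 8 with total signals scaled and unscaled, and 3 with the deposited values. With the deposited values miR-6826-5p had 0.49 and was not among those 3. With the total signals and the deposited values 44 members had values, and most of those past 1.5-fold had total signals under 6. Over all miRNAs with values, the share past 1.5-fold was 3.49% to 5.68% in the settings with 1 member past it. That share was 19.2% with all probes in the 75th percentile. It was 10.8% and 12.5% with total signals scaled and unscaled, and 11.5% with the deposited values. With all probes in the 75th percentile the median difference of the members was 0.42, and that scaling moved the median of all miRNAs by 0.52. Without a filter on dim probes all 54 had a value. The members' median stayed above that of the miRNAs under 1000 in every setting, by 0.057 to 0.14. A constant scaling cancels in this gap. No scaling, scaling to the median and all probes in the 75th percentile therefore could not change it. The total signals, scaled or not, and the deposited values all gave 0.118. Members with probes of opposite sign numbered 0 when all probes gave the 75th percentile, 2 with no scaling, 8 with quantile normalization, and 7 with any flagged spot or with the median of spots. Hairpins with 1 detected arm numbered 22 to 29. The median signal of members was 32.1 on the Ad-uc.372 array, 8.54 as total signal and 74.3 before background subtraction. The causes were not tested. A slide or scan block was not run, since both arrays share them. No paired analysis was possible because a single array stands for either vector.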
